A study of Mus musculus with 2 samples.

Results

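The FGF4 to ERK signalling components described here are 8 genes, Fgf4, Fgfr1, Fgfr2, Grb2, Sos1, Map2k1, Map2k2 and Mapk3, chosen by name as a chain that runs from a secreted ligand to an ERK kinase. All 8 were found by symbol among the 23889 gene symbols of the deposited files. RNA was sequenced from E14 cells, a mouse embryonic stem cell (mESC) line that the labels give as derived from a 19/Ola mouse. Cells were grown without feeders on gelatin in medium with 15% FBS and 1000 U/ml LIF, transfected with a control shRNA (genotype label Normal) or a USP21 shRNA (genotype label USP21 knockdown), and harvested after 3 days. Each group is 1 library of total RNA, so there are no replicates, no test was possible, and the difference between the libraries has no replicate check. The labels do not say which USP21 shRNA was used, nor what share of the cells was transfected. USP21 is a deubiquitinase, an enzyme that removes ubiquitin from proteins, and the study examined ERK signalling as an input to it. The libraries allow the opposite view, the RNA levels of the pathway in cells whose Usp21 RNA was low.

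FGF4 is secreted by mESCs and acts on the same cells and their neighbours. It binds FGF receptor tyrosine kinases at the cell surface together with heparan sulphate, and the activated receptor recruits the adaptor GRB2 and its partner SOS1, which loads RAS with GTP. RAS starts the kinase cascade of RAF, MEK1 and MEK2 (Map2k1 and Map2k2) and the ERK kinases, among them ERK1 (Mapk3). In mESCs the pathway is known for driving cells out of self-renewal, and MEK inhibitors are used to hold them in the naive state. The activity of the cascade lies in protein phosphorylation, which RNA levels do not measure.

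Fgf4 is the member with the best known regulatory sequence in these cells, an enhancer in its 3′ UTR that Oct4 and Sox2 bind side by side. The core of that element is shown because it ties the ligand to the pluripotency factors whose levels are given below. It was found in the Fgf4 transcript of GENCODE M21 at chr7:144864388-144864417 (GRCm38, plus strand), in exon 3. Its Sox motif starts 1456 bases past the end of the coding sequence. Capitals mark the Sox motif CTTTGT and, 4 bases on, the octamer variant ATGCTAAT.
Fgf4 3′ UTR element: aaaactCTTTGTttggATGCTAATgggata
The same motif pair, with any 4 bases between and on either strand, occurred in 1 of 22500 coding transcripts searched (0.00444%), that of Fgf4 itself. A match of letters does not show binding in these libraries.

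The values are FPKM, fragment numbers divided by gene length and by library size, and they sum to 613617 for the control shRNA and 543206 for the USP21 shRNA. No fragment counts were given. The ratio at which low genes repeat between the libraries, a trace of single fragments, places the control 1.23 times deeper than the knockdown, which is the library with the USP21 shRNA. Usp21 itself stood at an FPKM of 26.2 in the control library and 3.49 in the knockdown, which goes with the labels. Differences are given as log2((FPKM with USP21 shRNA + 0.1)/(FPKM with control shRNA + 0.1)), which understates the difference of low genes. Of 11927 genes with an FPKM of at least 1 in at least 1 library, 7.77% were at least 1.5-fold higher with the USP21 shRNA and 6.46% at least 1.5-fold lower, with a median log2 ratio of 0.0031. Rescaling the libraries to equal sums brings that median to 0.18 and adds about as much to each log2 ratio, a little less for low genes because of the pseudocount, and turns the split of 927 higher and 771 lower genes into 1654 and 463. Values below are as deposited, which is close to relative to the median gene.

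RNA of all 8 members was listed above 0 in both libraries, with Fgfr2 as the faintest. With the control shRNA the FPKM, which is per gene length, ran from 61.2 for Map2k1 through 54.8 for Fgf4, 46.1 for Grb2, 42.7 for Mapk3, 36 for Map2k2, 19.8 for Fgfr1 and 6.95 for Sos1 to 0.456 for Fgfr2. With the USP21 shRNA Fgf4 stood first at 74, followed by Map2k1 at 50.6, Map2k2 at 42.6, Grb2 at 41.7, Mapk3 at 37.5, Fgfr1 at 24.7, Sos1 at 9.63 and Fgfr2 at 1.7. The last 3 places were held by the same genes in both libraries, while the order of the 5 genes above them differed. With 1 library a group, no spread is available to say which neighbours in these orders differ. Among genes with a value above 0, Fgf4 lay above 90.1% in control cells and above 93.1% in the knockdown, and Fgfr2 above 26.2% and 37.6%.

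**Figure D1:**
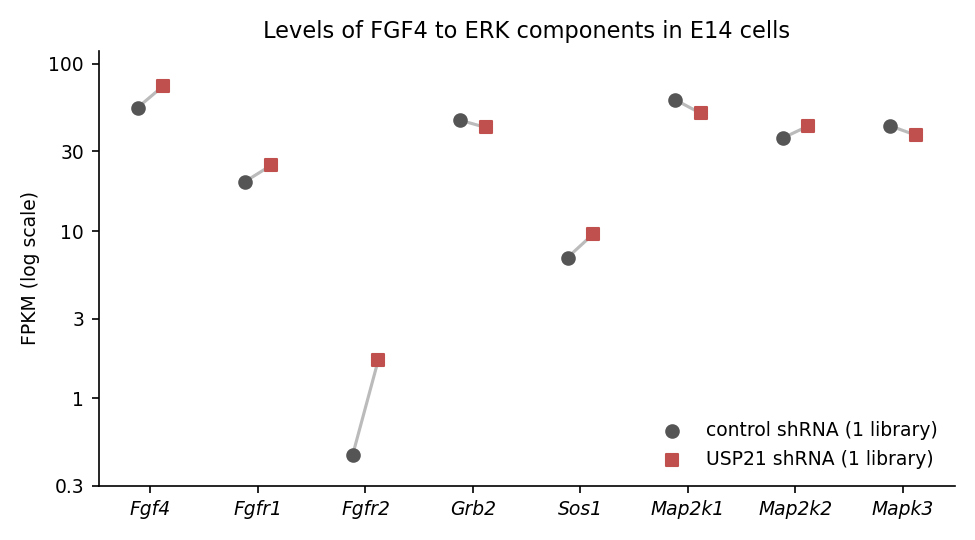
FPKM (log axis) of the 8 components in the control shRNA library (grey circles) and the USP21 shRNA library (red squares), 1 library each, in order from ligand to kinase. Fgfr2 sits lowest in both libraries, at 0.456 and 1.7, and has the widest gap between them.

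Only Fgfr2 passed 1.5-fold among the 8 members, 1 gene higher against the 7.77% of all genes, and 0 members were at least 1.5-fold lower against 6.46%. At an FPKM of 0.456 and 1.7, Fgfr2 passed the filter only through the library in which it is high, so a gene this low could be counted only if it was higher there, and its count supports nothing about the members. With a filter of 5 the count was 0. Of the 8 log2 ratios 5 were above 0 and 3 below, with a median of 0.28 beside the median of 0.0031 over all genes past the filter. Rescaled to equal sums, 3 members were at least 1.5-fold higher, Fgf4, Fgfr2 and Sos1, where 13.9% of all genes were, and 0 were lower, beside 3.88%. After correction for transcript length Fgfr2 alone was called, beside 7.11% of all genes higher and 5.91% lower. In bulk RNA, more cells that make a transcript and more of it per cell cannot be told apart.

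**Figure D2:**
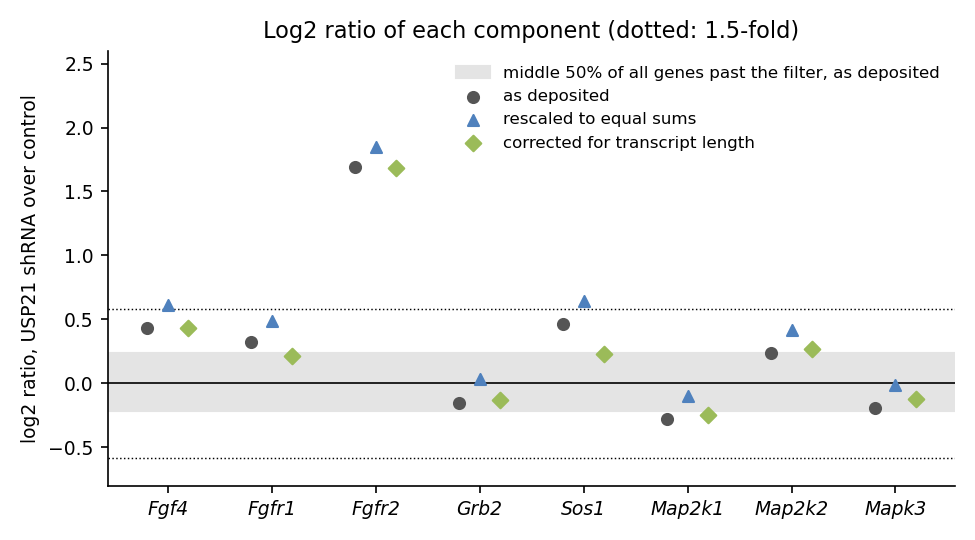
Log2 ratio (USP21 shRNA over control shRNA) of each component as deposited (circles), rescaled to equal sums (triangles) and corrected for transcript length (diamonds); the grey band holds the middle 50% of all genes past the filter as deposited, from -0.22 to 0.24, and dotted lines mark 1.5-fold. Fgfr2 lies between 1.68 and 1.85, and the other 7 components lie between -0.28 and 0.64.

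Fgf4, the ligand, stood at an FPKM of 54.8 in the control library and 74 in the knockdown, 1.35 times as high. Its log2 ratio of 0.43 was above that of 87.1% of the genes past the filter and short of 1.5-fold, and rescaling to equal sums brought it to 0.61. The factors that bind its enhancer stood slightly lower in the same library, Pou5f1 (Oct4) at 868 in the control and 752 in the knockdown and Sox2 at 241 and 218, with log2 ratios of -0.21 and -0.14 that came to -0.03 and 0.03 on rescaling. No stretch of 31 bases in its transcript recurs in another annotated gene (0 of 3000).

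Fgfr1, the FGF receptor best known in mESCs, stood at an FPKM of 19.8 in the control library and 24.7 in the knockdown. The log2 ratio was 0.32, short of 1.5-fold. Part of its transcript, 3.3%, lies opposite exons of the annotated gene Gm16159, and whether the counting used strand is not given in the sources used here.

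Fgfr2, the receptor known in the early embryo from primitive endoderm and trophectoderm, stood at an FPKM of 0.456 in the control library and 1.7 in the knockdown, 3.73 times as high. Its log2 ratio of 1.69 was above that of 99.6% of genes past the filter. With a pseudocount of 1 it was 0.89. At 2-fold, which 2.3% of all genes exceeded upward and 2.03% downward, Fgfr2 was the single member counted, again through a filter that it passed only in the knockdown. Of 1449 genes past the filter with a mean FPKM of 0.5 to 2, 7.87% were at least 2-fold higher and 7.8% at least 2-fold lower. The filter fixes part of these shares. A gene near the low end of that band reaches an FPKM of 1 only if its libraries differ strongly, so the shares do not measure scatter. The values of Fgfr2 were still well above the smallest ones listed, since 1% of the genes above 0 with a transcript length within 20% of its own lay under an FPKM of 0.00947 in the control library and under 0.0109 in the other. Fgfr2 is spliced into forms that bind different ligands, and the files give a single value for all of them.

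Taken over Fgfr1 to Fgfr4, the summed FPKM came to 24.7 in control cells and 30 in the knockdown. Fgfr1 made up 80.3% of that sum in the control library and 82.3% in the other. Fgfr2 went from 1.8% of the sum to 5.7% and Fgfr3 from 8.8% to 3.1%, while Fgfr4 stood at 9.1% and 9.0%. Fgfr3, which is no member, had an FPKM of 2.17 and 0.931, a log2 ratio of -1.14. The low receptors Fgfr2 and Fgfr3 thus stood in opposite order in the libraries, and Fgfr1 was the dominant receptor RNA in each.

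Grb2, the adaptor that couples receptors to SOS proteins, stood at an FPKM of 46.1 in the control library and 41.7 in the knockdown. Its log2 ratio of -0.15 turned to 0.03 on rescaling to equal sums, so it has no firm direction. Of its 31-base words 13.3% occur in the annotated genes Gm12791 and Gm13542, which are not analysed here, and how such fragments were assigned is not given in the sources used here.

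Sos1, the exchange factor that loads RAS with GTP, stood at an FPKM of 6.95 in the control library and 9.63 in the knockdown. The log2 ratio was 0.46 as deposited, 0.64 rescaled to equal sums and 0.23 after correction for transcript length. Sos1 has the longest transcript of the members, 8436 bases, and is the member whose ratio shrank most under that correction.

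Map2k1, which encodes MEK1, stood at an FPKM of 61.2 in the control library and 50.6 in the knockdown. Map2k2, which encodes the related kinase MEK2, had 36 and 42.6. The log2 ratios of -0.28 and 0.24 were opposite in sign, and they stayed so on rescaling to equal sums, at -0.10 and 0.42. Their transcripts are nearly equal in length, 2436 and 2405 bases, and share 1.4% of their 31-base words. Their summed FPKM came to 97.2 in control cells and 93.1 in the knockdown.

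Mapk3, which encodes ERK1, stood at an FPKM of 42.7 in the control library and 37.5 in the knockdown. The log2 ratio of -0.19 came to -0.01 on rescaling to equal sums, so it too has no firm direction. Of the 31-base words of Mapk3 3.8% recur in 4 other annotated genes.

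Ratios of related genes within a library do not depend on how the libraries were scaled to each other. Fgfr1 was 43.4 times as high as Fgfr2 in the control library and 14.5 times in the knockdown. Map2k1 was 1.7 times as high as Map2k2 and then 1.19 times. Map2k1 thus made up 63.0% of the summed RNA of the MEK pair in control cells and 54.3% in the knockdown. Sos1 stood at 2.69 and 2.88 times Sos2, the pair with the smallest difference between the libraries. With the pseudocount of 0.1 on each level, the log2 balances differed by -1.38, -0.52 and 0.10 in the order Fgfr1 to Fgfr2, Map2k1 to Map2k2 and Sos1 to Sos2. Corrected for transcript length, these differences were -1.47, -0.52 and -0.05. The balance of Fgfr1 to Fgfr2 rests on low values of Fgfr2, and with a pseudocount of 1 it was 3.84 in control cells and 3.25 in the knockdown, in place of 5.16 and 3.78.

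**Figure D3:**
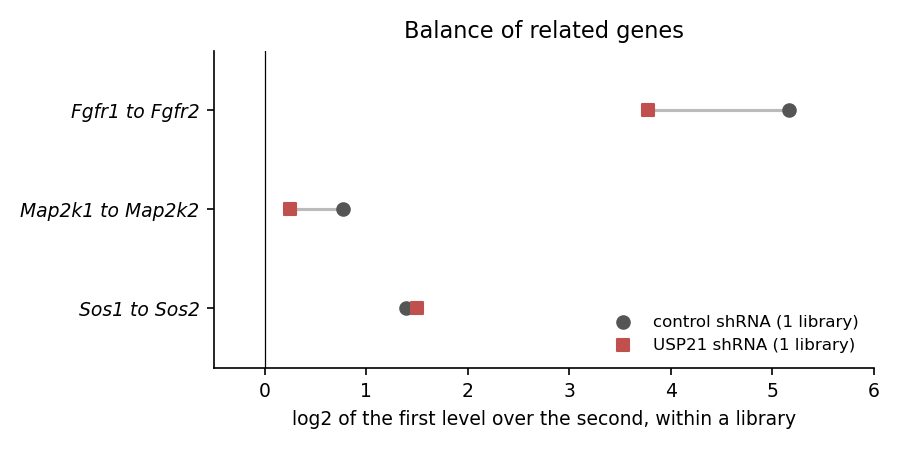
Log2 of the level (FPKM + 0.1) of the first gene over that of the second within the control library (grey circles) and the USP21 shRNA library (red squares), for 3 pairs of related genes. Fgfr1 to Fgfr2 and Map2k1 to Map2k2 lie further left with the USP21 shRNA, from 5.16 to 3.78 and from 0.77 to 0.25, while Sos1 to Sos2 lies at 1.39 and 1.5.

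Transcript length moved with the members' ratios. Over 11378 genes past the filter with a transcript in GENCODE M21, the log2 ratio and transcript length had a Spearman rho of 0.32 across genes, which are not independent replicates. The 4 members with the longest transcripts (Fgf4, Fgfr2, Fgfr1 and Sos1, 3030 to 8436 bases) had log2 ratios of 0.32 to 1.69. Of the 4 with the shortest (Mapk3, Map2k2, Map2k1 and Grb2, 1800 to 2709 bases) 3 were below 0, over a range of -0.28 to 0.24. After a lowess correction for length the medians of these groups came to 0.33 and -0.12, from 0.45 and -0.17. Every member kept its sign under this correction, and Fgf4 at 0.43, Fgfr2 at 1.68 and Map2k2 at 0.27 hardly moved.

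**Figure D4:**
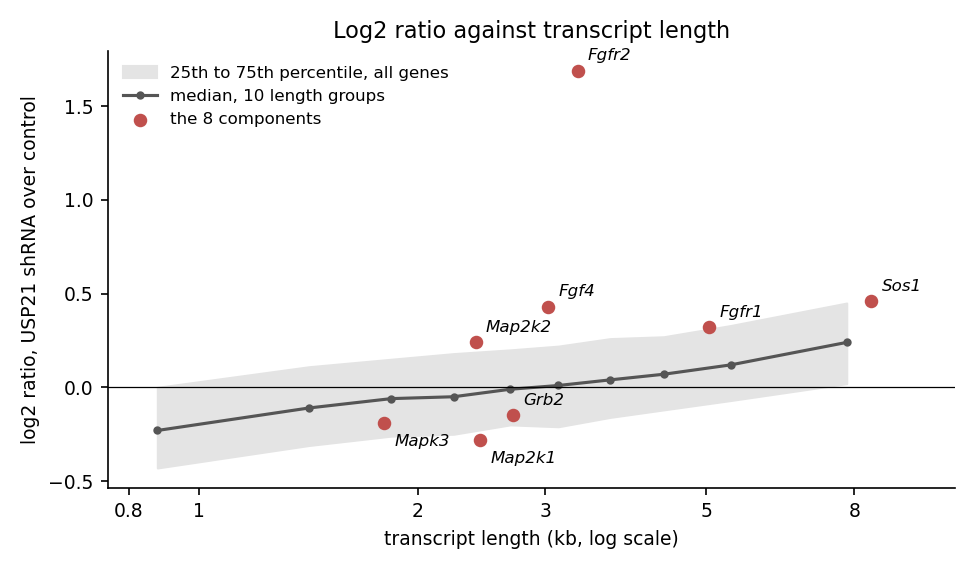
Log2 ratio (USP21 shRNA over control shRNA) against transcript length in kilobases (log axis): the line gives the median of all genes past the filter in 10 groups by length, the grey band their 25th to 75th percentile, and red points the 8 components. The median climbs from -0.23 in the shortest group to 0.24 in the longest, and Fgfr2 lies far above the band.

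On GRCm38, by the GENCODE M21 transcript with the longest coding sequence, Fgf4 lies at chr7:144861386-144865243 (3 exons), Fgfr2 at chr7:130163709-130266191 (18 exons) and Mapk3 at chr7:126759601-126765819 (9 exons), so 3 of the 8 members share a chromosome. Fgfr1 lies at chr8:25518772-25575714 (18 exons), Grb2 at chr11:115644045-115708597 (6 exons) and Sos1 at chr17:80393751-80479969 (22 exons). Map2k1 lies at chr9:64185770-64253631 and Map2k2 at chr10:81105915-81124697, each with 11 exons. The members on chromosome 7 did not share a direction, with log2 ratios of 0.43, 1.69 and -0.19.

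Around the members, 117 other genes of the pathway are reported in 9 lists, of which 116 were in the files and 95 passed the filter. Of these 14 were at least 1.5-fold higher and 4 at least 1.5-fold lower, beside 7.77% and 6.46% of all genes. Their median log2 ratio was 0.10. Rescaled to equal sums, 25 were at least 1.5-fold higher and 3 lower, where 13.9% and 3.88% of all genes were.

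Among ligands other than Fgf4, 6 of 18 passed the filter and 1 of these, Fgf13, was called, at an FPKM of 1.78 and 0.969 (log2 ratio -0.82); Fgf13 is a family member that stays inside the cell. The highest of them was Fgf17, a secreted ligand, with an FPKM of 23.5 and 16. Fgf4 was therefore the most abundant RNA among the FGF ligands listed, in each library. Of the other receptors and co-receptors 4 of 5 passed the filter, and Fgfr3 was the gene called, also lower. Fgf13 and Fgfr3 passed the filter only through the control library, in which each stood higher. Their counts therefore support nothing about these lists, and 6.46% of all genes were at least 1.5-fold lower. Fgfr4 had an FPKM of 2.24 and 2.7.

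Heparan sulphate chains hold FGFs near their receptors, and genes for their synthesis, trimming and core proteins went both ways. Of 16 past the filter 4 were at least 1.5-fold higher and 2 lower, beside 7.77% and 6.46% of all genes. Rescaled to equal sums, 5 were higher and 1 lower, beside 13.9% and 3.88% of all genes. Glce, which makes the chains flexible by epimerising their uronic acids, had an FPKM of 8.45 and 14.6. Sulf1, an extracellular sulphatase that trims the chains, had 7.68 and 13.9. Among the core proteins Sdc4 had 38.7 and 61.4 and Gpc4 18.9 and 29.1, against 27.6 and 18 for Sdc1 and 2.23 and 1.13 for Sdc3. The syndecans thus did not share a direction.

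Of 10 adaptors and exchange factors between receptor and RAS 1 was at least 1.5-fold higher and 0 lower, beside 7.77% and 6.46% of all genes. It was Gab1, a docking protein, at an FPKM of 23.8 and 37.7 (log2 ratio 0.66). Corrected for transcript length, its log2 ratio was 0.56, short of 1.5-fold, and 0 of this list were called. The docking protein Frs2, which links FGF receptors to GRB2, had 6.68 and 9.22 (log2 ratio 0.46). Of 9 RAS proteins and GTPase activating proteins 0 passed 1.5-fold in either direction, with Hras at 39.6 and 34.7 and Nras at 34.6 and 31. Among 10 RAF kinases and scaffolds 2 were higher, Ksr1, a scaffold that holds RAF, MEK and ERK together, at 3.56 and 7.55 (log2 ratio 1.06), and Pea15a, which binds ERK in the cytoplasm, at 17.8 and 27.6 (log2 ratio 0.62). The RAF kinase genes Araf and Braf had log2 ratios of 0.06 and 0.55. Of the 9 other MAPK kinases and MAPKs reported here 0 were called in either direction, over a range of -0.54 to 0.37. Of 11 kinases and factors acted on by ERK 0 were called in either direction, over a range of -0.35 to 0.52. Rescaled to equal sums, where 13.9% of all genes were at least 1.5-fold higher, 3 adaptors and exchange factors, 1 RAS or GTPase activating protein gene, 4 RAF kinases and scaffolds, 0 other MAPK kinases and MAPKs and 2 kinases and factors acted on by ERK were.

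Of the genes that ERK signalling is known to switch on, 20 passed the filter, and 7 of these were at least 1.5-fold higher and 0 lower, beside 7.77% and 6.46% of all genes. At 2-fold 1 of them was higher, beside 2.3% of all genes. Rescaled to equal sums, 10 were at least 1.5-fold higher and 0 lower, beside 13.9% and 3.88% of all genes. As deposited, the median log2 ratio of the 20 was 0.41, with 17 of 20 above 0, beside a median of 0.28 for the members. The list was drawn up with earlier results of these data known, so its direction is a description. The phosphatases that switch ERK off included Dusp4 (FPKM 3.9 and 7.13), Dusp5 (4 and 7.1) and Dusp6 (29.9 and 49.2). Not called were Dusp9, at 87.1 and 100, and Dusp7, at 7.49 and 6.45. Of the Sprouty and Spred inhibitors, Spry4 had an FPKM of 35.8 and 54.1 and Spred3 1.2 and 2.48. The transcription factor genes Egr1 and Etv1 had 39.5 and 75.9, and 6.25 and 12.7. Other responders were level as deposited, such as Etv5 at 137 and 139, Etv4 at 93.5 and 98.7 and Spry1 at 3.67 and 3.9. On rescaling to equal sums their log2 ratios were 0.20, 0.25 and 0.25. Myc had a log2 ratio of -0.22, which came to -0.05 on rescaling. Spry4, at a log2 ratio of 0.59, lay just past 1.5-fold, and after correction for transcript length 6 of the list were called.

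**Figure D5:**
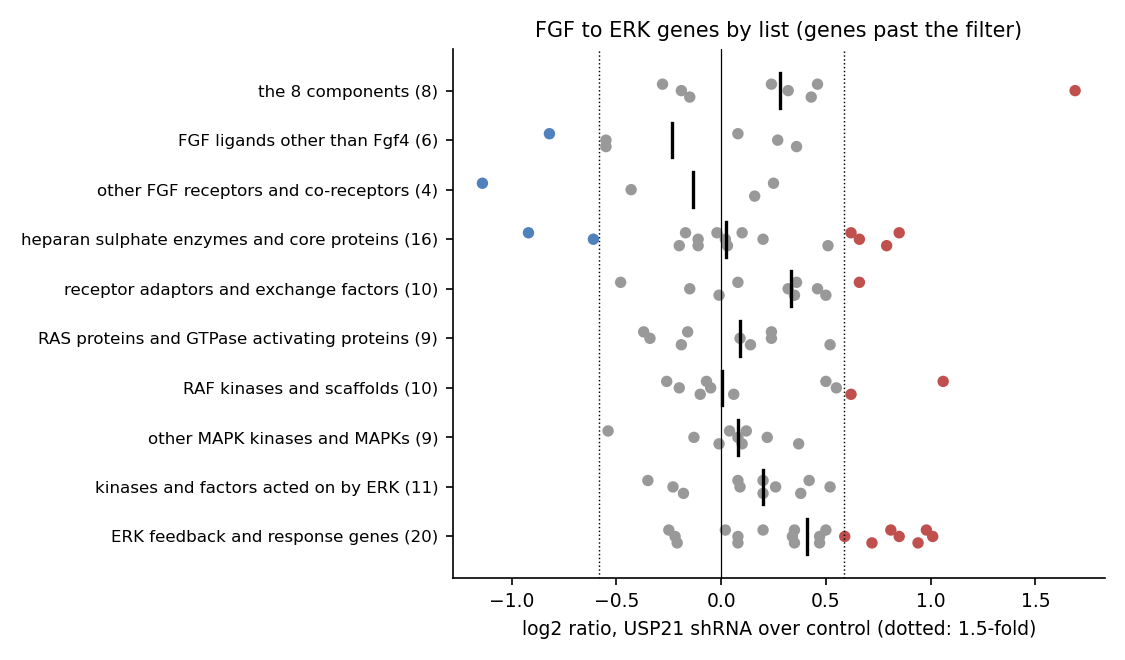
Log2 ratio (USP21 shRNA over control shRNA) of every gene past the filter in the 8 components and in 9 lists of other pathway genes, with the number of genes in brackets; black bars are medians, dotted lines 1.5-fold, and red and blue points genes at least 1.5-fold higher and lower. The ERK feedback and response genes have the highest list median, 0.41, and 7 red points.

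Because Fgfr2 is known from extraembryonic cells, markers of the cell types the culture could hold are given beside it. All 10 mESC markers were present in each library, at a summed FPKM of 4388.9 in control cells and 3286.8 in the knockdown. These sums are as deposited, and Dppa5a alone had 1849.5 and 1285.4. As deposited each marker was lower in the knockdown, with log2 ratios of -0.97 to -0.14. On rescaling to equal sums Sox2 and Klf4 came to 0.03 and 0.02 and Pou5f1 to -0.03. Esrrb came to -0.08, Tdgf1 to -0.09, Zfp42 to -0.13, Fbxo15 to -0.31 and Dppa5a to -0.35. Past 1.5-fold were Nanog, at 467 and 258 (log2 ratio -0.86), and Tfcp2l1, at 59 and 30.2 (log2 ratio -0.97), which came to -0.68 and -0.79 on rescaling. For this and the marker counts that follow, 7.77% of all genes were at least 1.5-fold higher and 6.46% lower. Of 9 primitive endoderm markers 1 was at least 1.5-fold higher, Pdgfra at 2.48 and 4.22, and 1 lower, Sox7 at 4.68 and 1.97. The summed FPKM was 123 and 131, with Col4a1 at 40.8 and 53.3, Lama1 at 32 and 33.3 and Dab2 at 23.1 and 16.4. Gata6 stood at 8.6 and 10.8, Gata4 at 5.7 and 5.78, Sox17 at 4.02 and 3.54 and Foxa2 at 1.59 and 1.35. Of the 9 log2 ratios 5 were above 0 and 4 below. Their median was 0.02, or -0.18 after correction for transcript length. Of 7 trophectoderm markers 5 passed the filter, Hand1 was higher at 0.403 and 1.25 and Krt8 lower at 22 and 13.9, and the sum was 44.9 and 37.1. Hand1 passed the filter only through the knockdown, in which it is high. Cdx2 and Elf5 were under the filter at 0.157 and 0.268, and at 0.033 and 0. Eomes stood at 1.2 and 1.4, Tfap2c at 8.83 and 11.4 and Krt18 at 12.3 and 8.92. The 6 primed epiblast markers summed to 44.6 and 50.7. Of these 4 passed the filter, and 1 was called, Otx2, higher at 4.42 and 8.78. Pou3f1 stood at 1.83 and 2.4, Dnmt3b at 24.5 and 23.9 and Cldn6 at 13.3 and 15.2. Fgf5 and Lef1 were under the filter at 0.0999 and 0.0517, and at 0.471 and 0.366. Of 5 epithelial markers 4 passed the filter, Krt19 was lower, at 6.36 and 2.13, and the sum was 95.5 and 111. Not called were Cdh1 at 40.7 and 60.4, Epcam at 29.6 and 31.2 and Cldn4 at 18.3 and 16.8. Fibroblast markers were under the filter apart from Thy1 (17.3 and 5.29), which made up most of their sum of 18.3 and 6.07. Col1a1 stood at 0.801 and 0.56, Col1a2 at 0.113 and 0.167, and Lum was listed at 0 in each library. The part of cell composition in the Fgfr2 difference was not tested.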

How the data were processed

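The authors deposited FPKM values, 1 per gene symbol, for 1 control shRNA and 1 USP21 shRNA library of E14 cells. The submitters' processing notes name CASAVA 1.8.2, TopHat2 2.0.14, Cufflinks 2.2.1 and mm9, and the gene annotation is not given in the sources used here. Log2 ratios with a pseudocount of 0.1 were computed for all 23889 symbols, and genes with an FPKM of at least 1 in at least 1 library were counted at 1.5-fold. Transcripts came from GENCODE M21 (GRCm38), in which 94.6% of symbols were found, with 1 transcript per gene, and the correction for length was a lowess fit (span 0.3) of the log2 ratio on log2 length. No coordinates came from the files. No interval or test was computed, since the absolute depth is unknown and each group has 1 library. The genes named were the members, Usp21, Sos2, Fgfr3, Fgfr4, Frs2, Hras, Nras, Araf, Braf and the pathway genes past 1.5-fold. Added after their values were seen were Fgf7, Fgf10, Fgf17, Dusp7, Dusp9, Spry1, Etv4, Etv5, Myc and the single markers. The members and lists were chosen with earlier results of these data known, and the band of FPKM 0.5 to 2 after the value of Fgfr2 was seen. A further 3 genes of the lists are not reported here, and counts over the lists leave them out. Genes resembling a member in pattern were not sought, since 2 libraries give only 1 ratio. The alternatives were pseudocounts of 1 and 0.01, equal sums, median centring, length correction, a fold of 2, filters of 5 and 0.1 and none. Scripts were tested on simulated data. The software was matplotlib 3.10.9, statsmodels 0.14.6, scipy 1.17.1, pandas 2.3.3 and numpy 2.4.6 under Python 3.11.15.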

Additional observations from a re-analysis of the deposited data

How the results depend on the processing

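None of the 8 members but Grb2, under equal sums, changed sign under any alternative run, and no paired analysis was possible because each group has 1 library, which also leaves no replicate to leave out. Rescaling to equal sums gave log2 ratios of 0.61 for Fgf4, 0.49 for Fgfr1, 1.85 for Fgfr2, 0.03 for Grb2, 0.64 for Sos1, -0.10 for Map2k1, 0.42 for Map2k2 and -0.01 for Mapk3, with a median of 0.46, and 3 members, 25 pathway genes and 1654 of all genes at least 1.5-fold higher and 463 lower. This follows from its construction, a shift of the median ratio to 0.18. Length correction gave 0.21 for Fgfr1 and 0.23 for Sos1. The pseudocount moved low genes. With 1, the log2 ratio of Fgfr2 was 0.89, the log2 balance of Fgfr1 to Fgfr2 was 3.84 in the control and 3.25 in the USP21 shRNA library, that of Sos1 to Sos2 1.15 and 1.29, and 607 genes were higher and 512 lower. With 0.01, Fgfr2 was at 1.88 and the balance of Fgfr1 to Fgfr2 in the control library at 5.41. At 2-fold, 274 genes were higher and 242 lower, 2 pathway genes were higher and 1 lower, and 1 feedback and response gene was higher. With an FPKM of at least 5, no member was left past 1.5-fold (0), since Fgfr2 fails that filter, 1 pathway gene was lower, and 496 genes were higher and 408 lower. With an FPKM of at least 0.1 these were 1557 and 1354, and with no filter 1738 and 1514. Median centring moved none of these results by 0.1 or more, nor any count by over 1.5 times. Fgfr2, the lowest member, was the member that the pseudocount and the filter moved most, and the absolute depth behind its values is unknown.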

Other observations

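A pair of FGF ligands lay under the FPKM filter in both libraries and were looked at after their values were seen. Fgf7 stood at an FPKM of 0.24 in control cells and 0.968 in the knockdown, and Fgf10 had 0.805 and 0.341, with log2 ratios of 1.65 and -1.04. Fgf7 and Fgf10 are known as ligands of a splice form of Fgfr2. Both ligands are low in each library and stood on opposite sides of the median gene, and no replicate is available for either.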
